A study of Homo sapiens with 11 samples.

Results

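HEC50B cells that carry the R183W substitution in PPP2R1A were compared with cells of the same line returned to wild type (WT), both under the KAT6A inhibitor WM1119. The comparison used 5 of the 11 RNA-seq libraries of the study, chosen by their labels: 2 from R183W cells and 3 from WT cells. It covered 13980 genes with enough counts to be tested. HEC50B is an established human endometrial cancer cell line. Per the labels, R183W is the allele of the parental cells and the WT cells were made from them with CRISPR. The 5 libraries came from cells given 50 µM WM1119 for 4 days. A further 6 libraries, 3 from R183W cells and 3 from WT cells, received vehicle and served to show which differences were also present without the inhibitor. The labels do not say whether the WT line is 1 clone, so the allele and other differences between the lines cannot be told apart. Nothing in the labels ties a replicate number to a culture of its own, so the p-values measure only the spread between these libraries, which may be technical.

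PPP2R1A encodes the scaffold subunit of protein phosphatase PP2A, on which a catalytic and a regulatory subunit assemble, and substitutions at R183 recur in uterine cancers of high grade. KAT6A is a lysine acetyltransferase that modifies histones in a complex with a BRPF scaffold protein, an ING protein and MEAF6. WM1119 occupies the acetyl-coenzyme A site of the KAT6 enzymes. Gene counts measure RNA, so neither the phosphatase nor the acetyltransferase activity was read here, and a substitution in a codon is not visible in them.

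The 5 libraries held 4152250 and 3323979 counts in R183W cells and 4511680, 3932391 and 2609922 counts in WT cells. Levels are given in CPM, each count divided by the library's scaled total, in the order of the library numbers, and a count of 0 allows up to 0.665 to 1.15 CPM in these libraries. WT WM1119 library 3 was the shallowest and stood apart from the others of its group. On the first principal component of the 5 libraries it scored 5.18, against -43.4 and -54.9 for the R183W libraries and 40.3 and 52.8 for the other WT libraries. Counts over all genes are therefore given with and without it, as are those of some gene lists. Markers of the labelled cell type were present in part: EPCAM ranged from 70.2 to 91.8 CPM and KRT18 from 902 to 1303 CPM, while CDH1, the epithelial cadherin, and KRT19 were at or under the floor in all 5 libraries. The immune marker PTPRC and the endothelial markers VWF, CDH5 and KDR were at 0 in all 5. Summed over its 12 genes, the immune list stood at 5.76 and 3.93 CPM in R183W libraries and at 3.51 to 8.67 CPM in WT libraries. Of 10 fibroblast and stromal markers, COL1A2, COL3A1, DCN, FAP and POSTN were at 0 in all 5 libraries, while COL1A1 stood at 565 to 863 CPM and PDGFRA at 80.9 to 184 CPM. The 10 markers summed to 653 and 655 CPM in R183W libraries and to 1080, 987 and 945 CPM in WT libraries, 2 of the 4 tested were lower, and their part in the results was not tested.

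The promoters of some genes named below are shown here to mark the motifs searched in their groups. They were taken from the named genes whose promoter held the motif, so each holds a match by choice. MCM3, MCM7 and RBL1 are replication and S phase genes that were lower in R183W cells under WM1119. The capitals mark the E2F motif, searched on both strands as TTTGGCGC, TTTCGCGC or TTTCCCGC. IFI44L, IFIH1 and IFIT3 are interferon-stimulated genes that were also lower. There the capitals mark the interferon response element, searched on both strands as a pair of GAAA runs with any 2 bases between them, and matches may overlap. Each stretch is the 250 bases before the gene's start in RefSeq, build GRCh38.p14, written 5′ to 3′ along the gene.
MCM3 (chr6:52284743-52284992, minus strand): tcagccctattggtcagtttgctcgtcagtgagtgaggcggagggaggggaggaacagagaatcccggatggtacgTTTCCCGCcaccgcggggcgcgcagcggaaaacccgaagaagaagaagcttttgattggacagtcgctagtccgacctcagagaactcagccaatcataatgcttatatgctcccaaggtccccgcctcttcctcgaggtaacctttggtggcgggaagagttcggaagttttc
MCM7 (chr7:100101398-100101647, minus strand): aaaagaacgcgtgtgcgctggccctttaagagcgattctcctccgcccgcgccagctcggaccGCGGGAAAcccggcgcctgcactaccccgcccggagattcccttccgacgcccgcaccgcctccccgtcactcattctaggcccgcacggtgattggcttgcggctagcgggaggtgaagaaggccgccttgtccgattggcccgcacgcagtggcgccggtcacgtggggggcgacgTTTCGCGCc
RBL1 (chr20:37095998-37096247, minus strand): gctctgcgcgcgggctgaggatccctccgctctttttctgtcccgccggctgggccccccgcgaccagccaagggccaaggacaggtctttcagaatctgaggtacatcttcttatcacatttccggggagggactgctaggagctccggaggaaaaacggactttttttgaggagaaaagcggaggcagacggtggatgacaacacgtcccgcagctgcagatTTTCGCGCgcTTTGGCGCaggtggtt
IFI44L (chr1:78620198-78620447, plus strand): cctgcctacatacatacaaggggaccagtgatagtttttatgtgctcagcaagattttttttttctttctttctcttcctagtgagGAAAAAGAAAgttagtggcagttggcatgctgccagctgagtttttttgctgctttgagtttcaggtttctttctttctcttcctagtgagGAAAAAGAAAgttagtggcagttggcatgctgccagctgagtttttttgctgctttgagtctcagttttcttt
IFIH1 (chr2:162318685-162318934, minus strand): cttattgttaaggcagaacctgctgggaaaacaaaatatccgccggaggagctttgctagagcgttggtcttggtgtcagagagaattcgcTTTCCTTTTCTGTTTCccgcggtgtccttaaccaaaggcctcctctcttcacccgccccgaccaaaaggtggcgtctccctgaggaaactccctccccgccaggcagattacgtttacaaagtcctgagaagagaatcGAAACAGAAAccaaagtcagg
IFIT3 (chr10:89327747-89327996, plus strand): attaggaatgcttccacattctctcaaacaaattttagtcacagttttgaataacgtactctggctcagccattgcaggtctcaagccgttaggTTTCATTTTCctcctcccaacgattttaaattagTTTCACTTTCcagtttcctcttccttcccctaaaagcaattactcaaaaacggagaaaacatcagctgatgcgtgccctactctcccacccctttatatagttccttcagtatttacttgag
The E2F motif was found in 2.38% of 27305 promoters of this length and in 20 of 74 promoters (27%) of the tested genes from the licensing, fork, nucleotide and E2F lists. The interferon element was found in 3.07% of all promoters and in 12 of 22 (54.5%) of the tested interferon-stimulated genes. A match of letters is a description of the stretch, not evidence that a factor binds there.

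Under WM1119 the lines differed in 1197 of 13980 genes, or 8.56% (edgeR quasi-likelihood test, Benjamini-Hochberg adjusted p under 0.05, by which genes are called throughout). In R183W cells 649 genes (4.64%) were higher and 548 (3.92%) lower. At least a 2-fold difference was seen for 382 of the higher and 338 of the lower genes, and at least an 8-fold difference for 78 and 79. The median log2 difference over all tested genes was -0.02. In every one of the 1197 genes the 2 R183W libraries did not overlap the 3 WT libraries, a property shared by 34.8% of all genes tested. The count rested on the number and spread of the libraries. It was 386 and 394 without R183W WM1119 library 1 or 2, 749 without WT WM1119 library 2, and 2895 of 13897 genes (20.8%; 9.94% higher, 10.9% lower) without WT WM1119 library 3. The last of these kept 1193 of the 1197 genes. In all 11 fits that left out 1 library of the series, 263 genes were called, 145 higher and 118 lower, and single genes given below with their p-value are from these unless a library is named.

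**Figure D1:**
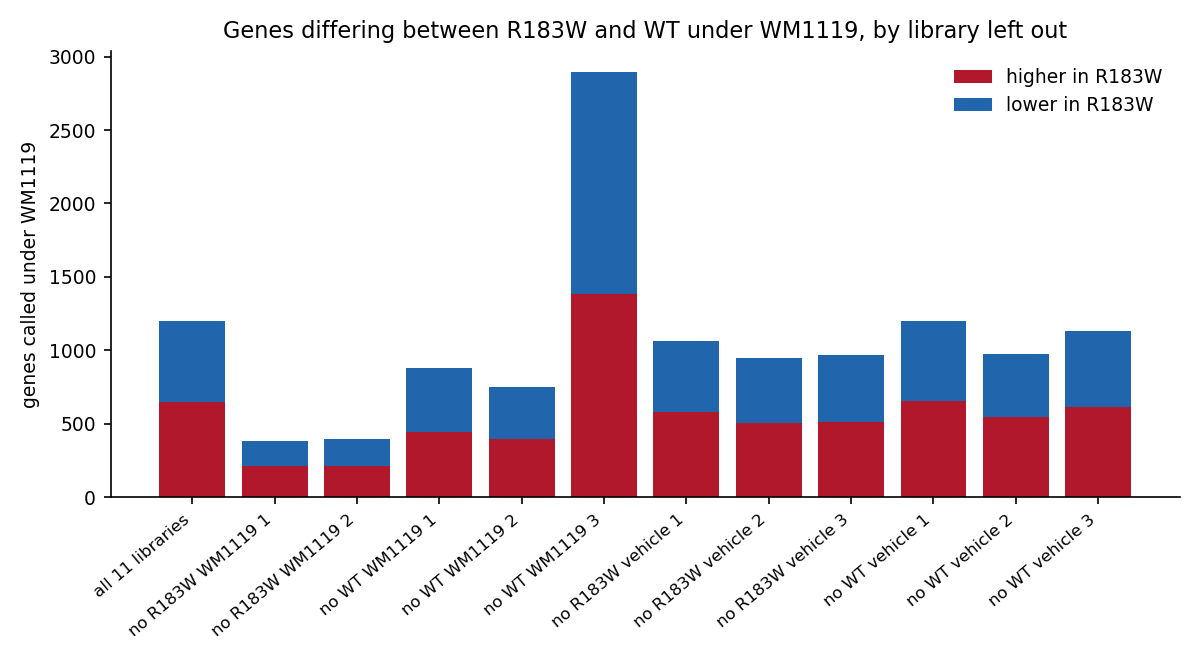
Number of genes called as different between R183W and WT cells under WM1119 (vertical axis, genes; red higher and blue lower in R183W) with all 11 libraries and with each library left out in turn. The count lies at 386 and 394 with R183W WM1119 library 1 or 2 omitted and at 2895 without WT WM1119 library 3, against 1197 with all libraries.

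Several genes were far higher in R183W cells. NOSTRIN, an adaptor that binds endothelial nitric oxide synthase, stood at 342 and 351 CPM in R183W libraries and at 9.23, 9.25 and 6.19 CPM in WT libraries (log2 difference 5.36, SE 0.30, edgeR adjusted p = 1.52e-07). A1CF, a cofactor of APOBEC1 in RNA editing, had 86 counts in R183W and 0 counts in WT libraries and was at least 41.7-fold higher, taking 3 counts over the group as the floor. ANKS4B, a scaffold protein of microvilli, had 213 counts in R183W libraries and 1 in WT libraries, a ratio of 310 (95% exact counting interval 55 to 12300). Such intervals and floors cover counting error only. MAOA, a monoamine oxidase, stood at 37.2 and 41.1 CPM in R183W and at 0.659, 1.80 and 3.30 CPM in WT libraries (log2 difference 4.5, SE 0.39, edgeR adjusted p = 1.12e-05). The R183W libraries were thus well above all WT libraries for each of these genes, and NOSTRIN was still clearly detected in WT cells.

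Regulators were among the 20 largest differences higher in R183W cells that were described. Genes known only by an identifier or clone name, pseudogenes and small RNAs were passed over, and some of them differed by more: ENSG00000236933 stood at 55.4 and 11.8 CPM in R183W libraries and at 0 in all 3 WT libraries. POU3F3, a transcription factor of neural and renal development, was at 38.6 and 40.2 CPM in R183W and at 3.08, 3.08 and 4.13 CPM in WT libraries (log2 difference 3.55, SE 0.36). Its neighbour PANTR1, a long noncoding RNA, had 66 counts in R183W and 2 in WT libraries (ratio 48, 95% exact counting interval 12.8 to 404). The sources used here do not give how strand was treated in counting, so reads of neighbours that overlap cannot be told apart. RIPPLY3, a transcriptional corepressor, was at 11.5 and 21.1 CPM in R183W and at 0.659, 0 and 1.24 CPM in WT libraries (log2 difference 4.79, SE 0.62). ROR2, a receptor of the ligand WNT5A, was at 29.5 and 33.5 CPM in R183W and at 0.659, 3.85 and 3.30 CPM in WT libraries (log2 difference 3.66, SE 0.42). SHISA3, an antagonist of WNT and FGF receptors, was at 84.7 and 74.0 CPM in R183W and at 3.73, 8.22 and 4.13 CPM in WT libraries (log2 difference 3.87, SE 0.28). The edgeR adjusted p-values of POU3F3, RIPPLY3, ROR2 and SHISA3 ran from 1.79e-06 to 0.0003. The others of the 20 were SP140, EPB41L4A, CPN1, DENND1C, KCNJ3, UCHL1, ADD2, PLCE1, RASGRF2, PRODH2 and RNASE4. Among them KCNJ3 is a potassium channel subunit, UCHL1 a deubiquitinase, PLCE1 a phospholipase and RASGRF2 an exchange factor of Ras proteins.

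In the other direction, FLG, the epidermal protein filaggrin, stood at 1.44 and 2.42 CPM in R183W libraries and at 293, 238 and 218 CPM in WT libraries (log2 difference -7.04, SE 0.40, edgeR adjusted p = 1.81e-07). TSPAN6, a tetraspanin, was at 1.2 and 0.604 CPM in R183W and at 49.6, 56.5 and 47.9 CPM in WT libraries (log2 difference -5.74, SE 0.32, edgeR adjusted p = 1.52e-07). SPOCK1, a matrix proteoglycan, was at 7.92 and 7.25 CPM in R183W and at 149, 143 and 157 CPM in WT libraries (log2 difference -4.29, SE 0.19, edgeR adjusted p = 4.33e-08). All 3 WT libraries, library 3 included, stood far above both R183W libraries for these genes. INHBA, the subunit that forms activin A, had 2 counts in R183W and 417 in WT libraries and was 143-fold lower in R183W cells (95% exact counting interval 39.5 to 1190). PDGFRB, a receptor of platelet-derived growth factor, had 2 and 262 counts and was 90.1-fold lower (24.7 to 748). FOXS1, a forkhead factor, RSPO3, a secreted amplifier of WNT signals, WNT6, a WNT ligand, and ABI3, a regulator of actin, had 0 counts in R183W libraries and 84, 73, 65 and 63 in WT libraries. They were at least 19.3-, 16.7-, 14.9- and 14.5-fold lower. The others of the 20 were RIPPLY1, PRMT8, NTS, SCN9A, MAG, CLDN16, AREG, KCNK1, PKP3, CLEC4E and KLK6. RIPPLY1, of the same corepressor family as RIPPLY3, went the opposite way, at 0.720 and 0.302 CPM in R183W and at 58.9, 69.4 and 69.8 CPM in WT libraries (log2 difference -6.88, SE 0.36, edgeR adjusted p = 1.25e-07).

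**Figure D2:**
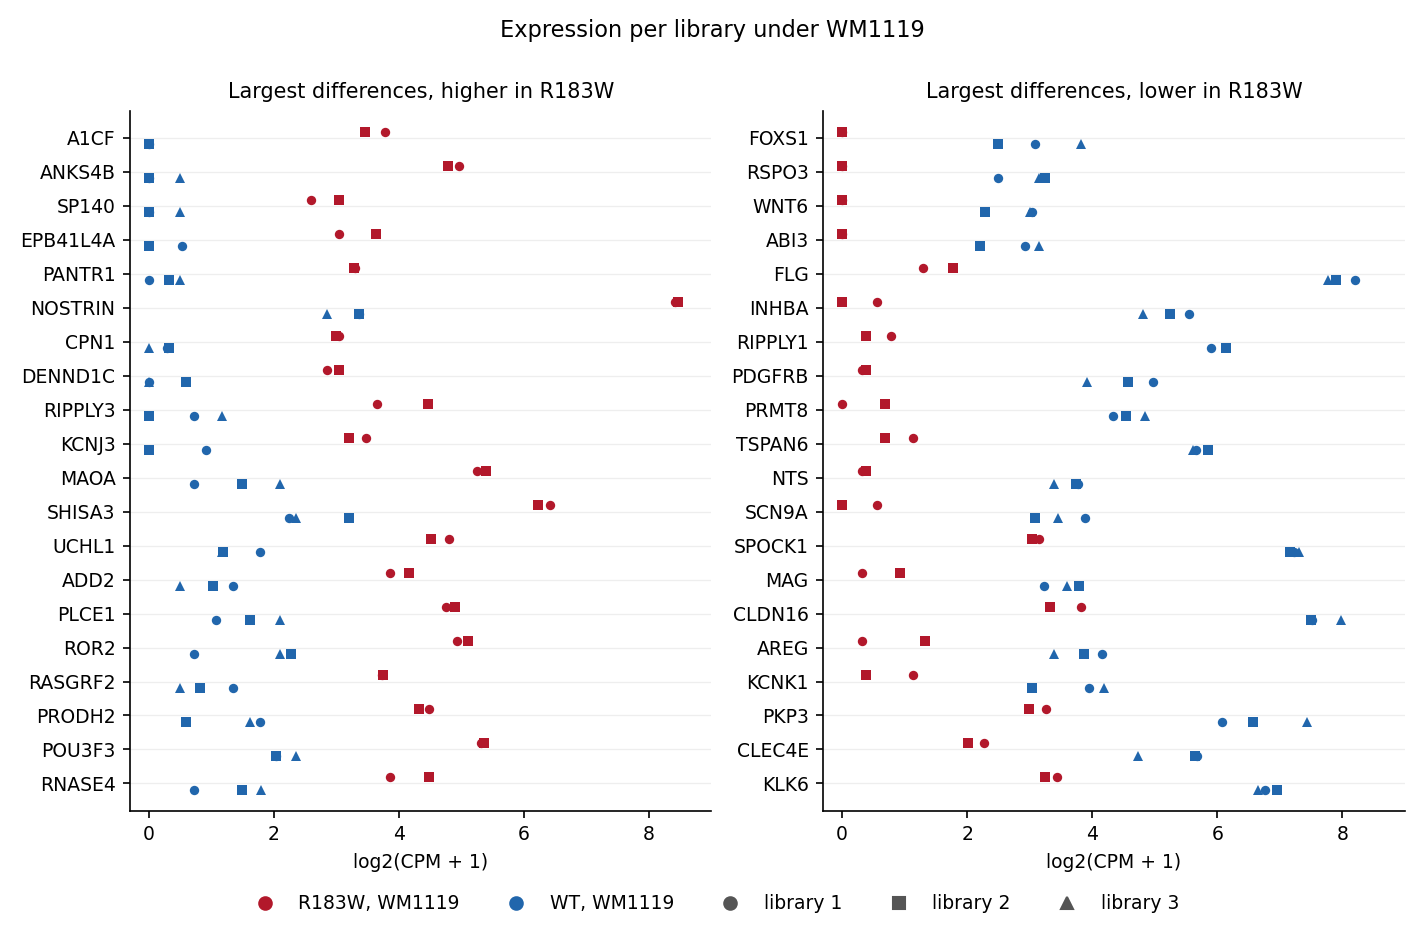
Level of each of the 20 described genes with the largest differences in each direction, as log2(CPM + 1) (horizontal axis), in each library under WM1119 (R183W red, WT blue; marker shape gives the library number). Genes were chosen among those where the 2 R183W libraries do not overlap the 3 WT libraries, so that separation follows from the choice. NOSTRIN lies at 342 and 351 CPM against 6.19 to 9.25 CPM.

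Many of these differences were also present without the inhibitor. The vehicle libraries, which are not shared with the WM1119 comparison but entered the same fit, gave 1817 called genes, or 13% of those tested. Of these, 671 were called in the same direction under WM1119, 354 higher and 317 lower, which is 56.1% of the WM1119 calls and 36.9% of the vehicle calls. NOSTRIN differed by 4.79 under vehicle on the log2 scale (SE 0.27), FLG by -4.89 (SE 0.28), TSPAN6 by -4.11 (SE 0.22) and SPOCK1 by -3.48 (SE 0.15). The median absolute log2 difference of the 671 genes was 1.28 under WM1119 and 1.17 under vehicle, and 415 of them differed more under WM1119. That count of 671 was 275 and 296 without R183W WM1119 library 1 or 2 and 1493 without WT WM1119 library 3.

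Another 516 genes were called under WM1119 and not under vehicle, 294 higher and 222 lower, of which 430 had the same sign under vehicle and 86 the opposite one. Passing the threshold in 1 treatment does not show a difference between treatments. The difference itself was tested as the interaction, the log2 difference between the lines under WM1119 less that under vehicle, which called 40 genes (0.286%), 13 higher and 27 lower, with 1300 genes at an unadjusted p under 0.05. It called 0 genes by edgeR without R183W vehicle library 2 or 3, where 1076 and 1125 genes had an unadjusted p under 0.05, 2 and 1 without R183W WM1119 library 1 or 2, and 192 without WT WM1119 library 3. DESeq2 called 157 genes and limma-voom 37. No interaction call held in all 11 fits with a library left out, so those below are less firm than the differences under WM1119 themselves. Called in opposite directions under the treatments were 10 genes. Of these, 9 were lower in R183W cells under WM1119 and higher under vehicle, among them CHAF1A, MCM3, POLA2, MNS1, MCM7, COL1A1, HELLS and SNRPB. SAT1, which acetylates polyamines, was the reverse. Of the 10, SAT1 alone kept its WM1119 call in all 11 fits with a library left out.

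**Figure D3:**
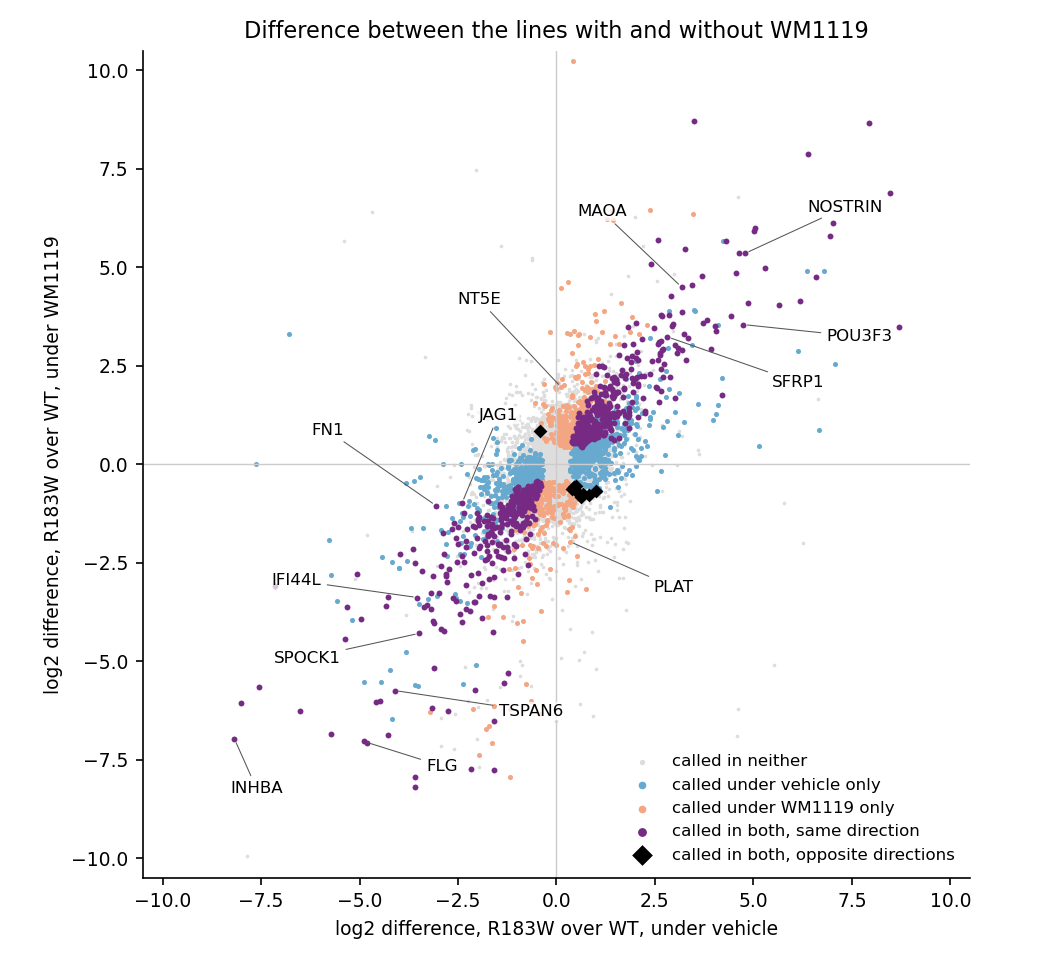
Log2 difference of each of 13980 genes between R183W and WT cells under WM1119 (vertical axis) against that under vehicle (horizontal axis), coloured by where the gene was called. The 671 genes called in both with the same direction lie along the diagonal, the 10 called in opposite directions (black) lie close to the origin, and fitted values of genes with few counts depend on the model.

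The medians of the DNA replication lists were below 0 under WM1119 and above 0 under vehicle, although most members were not called. The MCM proteins form the helicase that is loaded on origins before S phase, and the fork proteins copy DNA behind it. Of 24 tested genes of origin licensing and the MCM helicase, 4 (16.7%) were lower in R183W cells under WM1119, with a median log2 difference of -0.52. Those were MCM6, MCM3, ORC4 and MCM7, at -1.21, -0.78, -0.76 and -0.67. Under vehicle 8 of the 24 were higher, against 6.82% of all genes, with a median of 0.42. Of 33 replication fork genes, 5 (15.2%) were lower under WM1119 (RPA3, CLSPN, CHAF1A, POLA2 and DNMT1; median -0.54), while 4 were higher under vehicle (median 0.30). All 33 and all 24 passed the filter on low counts. When R183W WM1119 library 1 or 2 was left out, edgeR called 0 of the licensing genes, with 9 and 6 lower at an unadjusted p under 0.05. For the fork genes the counts there were 0 and 1, with 10 and 11 lower at an unadjusted p under 0.05. Without WT WM1119 library 3 the counts were 7 and 12 lower, and DESeq2 and limma-voom gave 5 and 2 of the licensing genes and 6 and 5 of the fork genes.

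MCM3, a subunit of the helicase, stood at 158 and 165 CPM in R183W and at 228, 246 and 357 CPM in WT libraries under WM1119. Under vehicle it stood at 295, 296 and 273 CPM in R183W and at 189, 151 and 151 CPM in WT libraries. The R183W libraries were thus the lower ones with the inhibitor and the higher ones without it. The log2 difference was -0.78 under WM1119 (SE 0.19, edgeR adjusted p = 0.0192) and 0.82 under vehicle (SE 0.16, edgeR adjusted p = 0.00466), and the interaction was -1.59 (SE 0.25, edgeR adjusted p = 0.02). The call under WM1119 was lost without R183W WM1119 library 1 or 2, with adjusted p up to 0.146, and was 0.00636 without WT WM1119 library 3. MCM7, another subunit, was at 110 and 90.3 CPM in R183W and at 143, 165 and 171 CPM in WT libraries under WM1119, against 217, 155 and 145 CPM and 87.9, 87.7 and 83.2 CPM under vehicle (interaction -1.67, SE 0.24, edgeR adjusted p = 0.0148). Its call under WM1119 (log2 difference -0.67, SE 0.18, edgeR adjusted p = 0.0355) was lost without either R183W WM1119 library, WT WM1119 library 2, or library 2 of either vehicle group, with adjusted p up to 0.298.

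Some genes of the related lists were also lower, though under WM1119 the E2F and mitosis lists were near the shares of all genes. Those shares were 3.92% lower and 4.64% higher under WM1119 and 6.82% higher under vehicle. Of 18 genes of the E2F and RB list RBL1 was lower and TFDP2 higher under WM1119 (5.56% each, median -0.51), while 6 were higher under vehicle (median 0.41). The TFDP2 call was lost when any 1 of the R183W WM1119 libraries or WT WM1119 libraries 1 and 2 was omitted. CLSPN, an adaptor of the replication checkpoint, was at 54.7 and 58.3 CPM in R183W and at 113, 110 and 116 CPM in WT libraries under WM1119 (log2 difference -1.0, SE 0.18, edgeR adjusted p = 0.00306, and up to 0.0569 without R183W WM1119 library 1). RBL1, a pocket protein of the RB family, was at 17.8 and 18.7 CPM in R183W and at 36.9, 42.1 and 52.0 CPM in WT libraries (log2 difference -1.25, SE 0.21, edgeR adjusted p = 0.00203) and kept its call with any library left out. CHAF1A, which deposits histones behind the fork, was at 88.1 and 87.9 CPM in R183W and at 139, 140 and 195 CPM in WT libraries (log2 difference -0.84, SE 0.19, edgeR adjusted p = 0.0151, lost without R183W WM1119 library 1 or 2 at up to 0.119). For these 3 genes, as for every gene called lower, each R183W library was below each WT library. RRM2, a ribonucleotide reductase subunit, and DUT, which removes dUTP, were the 2 of 12 deoxynucleotide genes that were lower, at -1.09 (SE 0.19) and -1.04 (SE 0.25). The RRM2 call was lost without R183W WM1119 library 2 and the DUT call without R183W WM1119 library 1 or 2 or WT WM1119 library 2, at adjusted p up to 0.066 and 0.16. E2F1, the transcription factor of the G1 to S transition, was at 28.1 and 38.1 CPM in R183W and at 37.3, 52.7 and 60.7 CPM in WT libraries, where the groups overlapped and the difference was not called (edgeR adjusted p = 0.125). Of 28 homologous recombination and Fanconi genes, EXO1, FANCD2 and BARD1 (10.7%) were lower under WM1119, while 5 members were higher under vehicle. The count under WM1119 was 1 with R183W WM1119 library 1 omitted and 6 with WT WM1119 library 3 omitted, and edgeR called 0 without R183W WM1119 library 2, with 4 lower at an unadjusted p under 0.05. FANCD2, the central protein of crosslink repair, was at 91.7 and 72.5 CPM in R183W and at 127, 142 and 149 CPM in WT libraries (log2 difference -0.76, SE 0.15, edgeR adjusted p = 0.0071, and 0.129 without R183W WM1119 library 2). Of 34 mitosis genes 2 (5.88%) were lower, FOXM1 at -1.24 (SE 0.22) and the proliferation marker MKI67 at -0.45 (SE 0.13), and 13 were lower and 1 higher without WT WM1119 library 3. The FOXM1 call was lost without R183W WM1119 library 2 (adjusted p 0.0722), and that of MKI67 without any of 8 libraries, at up to 0.243.

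**Figure D4:**
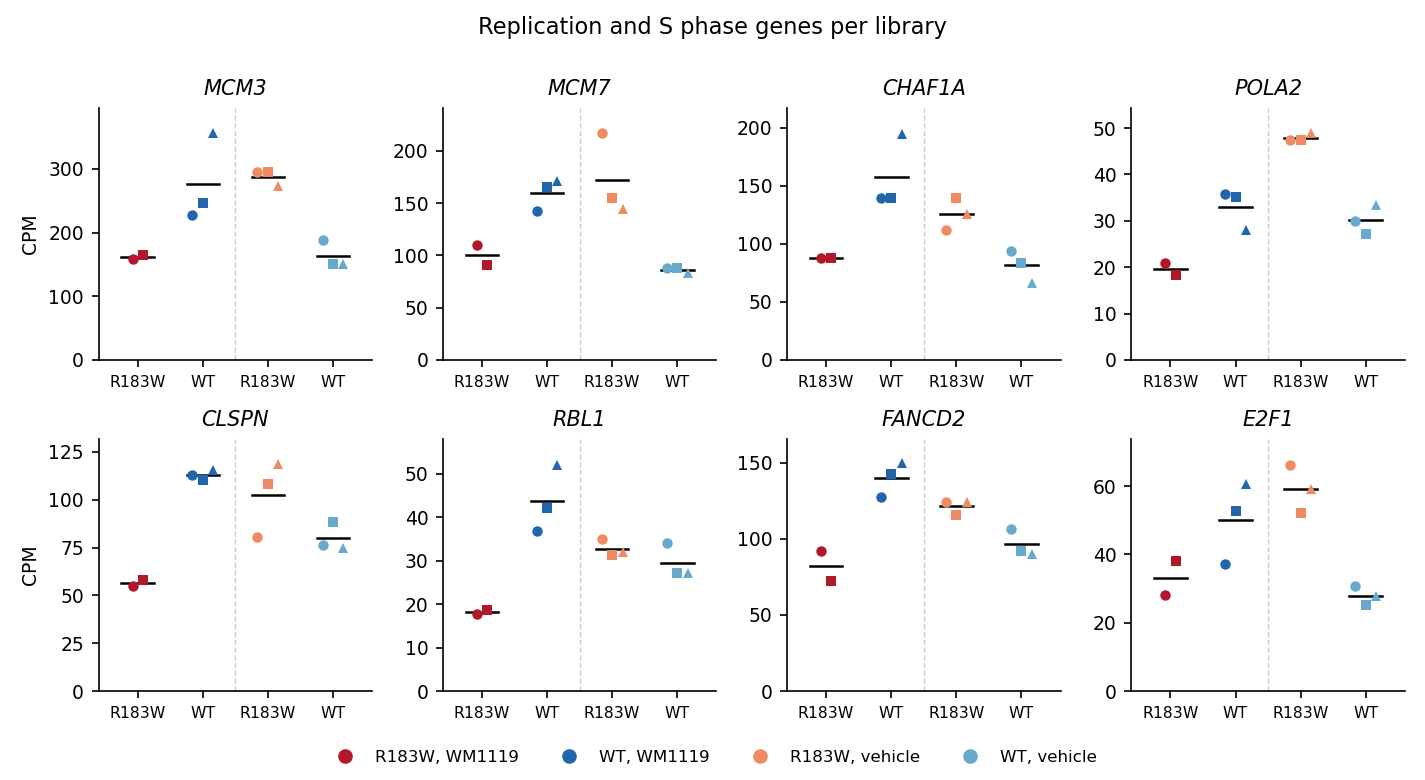
CPM of 8 replication and S phase genes in each library (points; shape gives the library number) with the group mean (line), for R183W and WT cells under WM1119 (left of the dashed line) and under vehicle (right). MCM3 lies at 158 and 165 CPM in R183W and 228 to 357 CPM in WT cells under WM1119, against 273 to 296 CPM and 151 to 189 CPM under vehicle.

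Interferon-stimulated genes, which encode antiviral effectors and sensors, were the list with the highest share of members called in 1 direction among those with at least 20 genes tested. Of 27 tested members (of 37 in the table), 10 (37%) were lower in R183W cells under WM1119, with a median log2 difference of -1.34. IFIH1, the cytosolic sensor MDA5 of double-stranded RNA, was at 5.04 and 3.32 CPM in R183W and at 36.2, 23.9 and 29.7 CPM in WT libraries (log2 difference -2.82, SE 0.34, edgeR adjusted p = 0.000158). IFI44L was at 3.36 and 1.81 CPM in R183W and at 33.4, 24.7 and 25.2 CPM in WT libraries (log2 difference -3.38, SE 0.35, edgeR adjusted p = 4.66e-05). Sensor and effector were lower in both R183W libraries than in any WT library. IFIT3, which binds viral RNA complexes, was at 12.2 and 16.6 CPM in R183W and at 44.1, 37.8 and 35.1 CPM in WT libraries (log2 difference -1.45, SE 0.22, edgeR adjusted p = 0.00103). Also lower were OASL, ISG15, IFIT2, IFIT1, IFI6 and RIGI. The count was 5 and 6 without R183W WM1119 library 1 or 2, and 13 lower with 2 higher without WT WM1119 library 3. Under vehicle 16 of the 27 were lower (6.17% of all genes were lower there; median -1.43), and the median interaction over the 27 genes was 0.15. The related MHC class I presentation list had 0 of 17 tested members called by edgeR, with 1 higher and 1 lower at an unadjusted p under 0.05 and 1 higher by DESeq2.

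Some cholesterol synthesis genes were higher in R183W cells. Of 24 tested members, 5 (20.8%) were called, all higher, with a median log2 difference of 0.58. Omitting either R183W WM1119 library left 4, and omitting WT WM1119 library 3 gave 10 higher and 1 lower. INSIG1, the sterol-regulated protein that holds SREBP factors in the endoplasmic reticulum, stood at 151 and 150 CPM in R183W and at 44.4, 39.8 and 42.5 CPM in WT libraries (log2 difference 1.83, SE 0.16, edgeR adjusted p = 1.25e-05). FDPS and FDFT1, enzymes of the route to squalene, differed by 0.95 (SE 0.15) and 0.79 (SE 0.13), and ACAT2 was also called. Of 20 fatty acid synthesis genes, FASN, the fatty acid synthase, and ACSS2, which makes acetyl-CoA from acetate, were called. FASN was at 705 and 720 CPM in R183W and at 367, 420 and 468 CPM in WT libraries (log2 difference 0.77, SE 0.13, edgeR adjusted p = 0.00239), and ACSS2 differed by 1.32 (SE 0.22, edgeR adjusted p = 0.00197). The groups did not overlap in any of these genes, as in every called gene. Under vehicle the cholesterol list had 8 higher and 2 lower members and a median of 0.57.

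Antioxidant genes controlled by NRF2, the factor of the oxidative stress response, were higher in part. Of 35 tested members, 7 (20%) were higher and 1 lower under WM1119 (median 0.28), against 2 and 2 under vehicle (median -0.20). The count of higher members was 4 and 3 without R183W WM1119 library 1 or 2 and 11 without WT WM1119 library 3. CBR1, a carbonyl reductase, was at 34.3 and 30.2 CPM in R183W and at 14.1, 12.3 and 9.5 CPM in WT libraries (log2 difference 1.41, SE 0.24, edgeR adjusted p = 0.00252). The light chain of ferritin, FTL, was at 2051 and 2091 CPM in R183W and at 1217.5, 1346.5 and 1349 CPM in WT libraries (log2 difference 0.67, SE 0.11, edgeR adjusted p = 0.00184). FTL has pseudogenes, so the assignment of its reads is uncertain. Its difference under vehicle was -0.11 (SE 0.10) and the interaction was called at 0.78 (SE 0.15, edgeR adjusted p = 0.0486). SLC7A11, the cystine transporter, was the member that was lower, at 118 and 121 CPM in R183W and at 219, 241 and 343 CPM in WT libraries (log2 difference -1.16, SE 0.18, edgeR adjusted p = 0.00122). Of 14 genes of drug metabolism and efflux 3 were higher, among them ALDH1A1, a retinaldehyde dehydrogenase, at 25.7 and 31.7 CPM in R183W and at 7.47, 1.80 and 3.30 CPM in WT libraries (log2 difference 2.71, SE 0.40, edgeR adjusted p = 0.000864). GSTM3 and AHRR were the other 2. Without WT WM1119 library 3 the list had 5 higher and 4 lower members, where 9.94% of all genes were higher and 10.9% lower. The GSTM3 call was lost without R183W WM1119 library 1 or 2 or WT WM1119 library 2, at adjusted p up to 0.188, and that of AHRR without any of 6 libraries, at up to 0.277.

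Among 35 hypoxia and glycolysis genes 5 (14.3%) were higher and 2 lower (median 0.14). Under vehicle 9 were higher and 1 lower (median 0.25), where 6.82% of all genes were higher and 6.17% lower. CA12, a membrane carbonic anhydrase, was at 1259.8 and 1132 CPM in R183W and at 472, 490 and 499 CPM in WT libraries (log2 difference 1.30, SE 0.12, edgeR adjusted p = 1.22e-05). HIF1A, the oxygen-regulated factor itself, was at 103 and 120 CPM in R183W and at 57.8, 59.9 and 52.8 CPM in WT libraries (log2 difference 0.97, SE 0.14, edgeR adjusted p = 0.001). Omitting library 1 or 2 of either group under WM1119 gave 3 higher genes, and omitting WT WM1119 library 3 gave 9. Of 35 ATF4 and amino acid genes 4 (11.4%) were lower and 1 higher, with 2 lower when either R183W WM1119 library or WT WM1119 library 2 was omitted and 10 when WT WM1119 library 3 was. NUPR1, a stress-induced chromatin protein, was at 26.9 and 29.3 CPM in R183W and at 95.5, 123 and 123 CPM in WT libraries (log2 difference -2.01, SE 0.18, edgeR adjusted p = 1.22e-05). Under vehicle the ATF4 list had 5 higher and 3 lower members and a median of 0.18, against -0.20 under WM1119.

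Signalling genes differed in both directions. Of 24 tested WNT genes, 4 (16.7%) were lower and 2 higher (median -0.51). The ligand WNT2B stood at 36.0 and 40.2 CPM in R183W and at 100, 90.4 and 103 CPM in WT libraries (log2 difference -1.36, SE 0.15, edgeR adjusted p = 6.77e-05). It did not differ detectably under vehicle (-0.07, SE 0.12), and the interaction was -1.29 (SE 0.19, edgeR adjusted p = 0.0148). SFRP1, a secreted antagonist of WNT ligands, went the other way, at 48.2 and 53.2 CPM in R183W and at 5.49, 4.88 and 5.78 CPM in WT libraries (log2 difference 3.24, SE 0.25, edgeR adjusted p = 4e-06). The ligand was thus low and the antagonist high in both R183W libraries. The lower count was 2 without R183W WM1119 library 1 or 2, and there were 6 lower and 4 higher members without WT WM1119 library 3.

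Of 17 tested Notch genes 4 (23.5%) were lower and 1 higher. JAG1, a Notch ligand, was at 69.8 and 63.1 CPM in R183W and at 150, 116 and 127 CPM in WT libraries under WM1119 (log2 difference -0.98, SE 0.16, edgeR adjusted p = 0.00141). Under vehicle the gap was wider, at 39.9, 43.0 and 42.4 CPM in R183W and 203, 214 and 242 CPM in WT libraries (log2 difference -2.40, SE 0.14), and the interaction was called at 1.41 (SE 0.20, edgeR adjusted p = 0.0148). The target HEY1 and the ligand JAG2 were also lower, at -1.45 (SE 0.29) and -1.06 (SE 0.25), but both calls were lost without R183W WM1119 library 1 or 2, and that of JAG2 also without WT WM1119 library 2, at adjusted p up to 0.092 and 0.126. The Notch count was 2 and 1 lower without R183W WM1119 library 1 or 2.

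Of 31 genes of TGF-beta, BMP and activin signalling 5 (16.1%) were higher and 4 (12.9%) lower. Besides INHBA, TGFBR3, the co-receptor betaglycan, was called, at 25.7 and 43.2 CPM in R183W and at 8.79, 6.42 and 9.08 CPM in WT libraries (log2 difference 2.09, SE 0.27, edgeR adjusted p = 0.000254). The counts were 2 higher and 1 lower, and 1 higher and 2 lower, without R183W WM1119 library 1 or 2, and 2 and 2 when WT WM1119 library 2 was omitted. Of 12 EGF receptor and ligand genes, the ligand AREG was lower, at 0.240 and 1.51 CPM in R183W and at 16.9, 13.6 and 9.5 CPM in WT libraries (log2 difference -4.03, SE 0.54, edgeR adjusted p = 0.000403), while the ligand TGFA was called higher, at 23.0 and 16.3 CPM in R183W and at 7.69, 13.6 and 9.08 CPM in WT libraries (edgeR adjusted p = 0.0405). The TGFA call was lost without any of 7 libraries, at up to 0.349. DUSP5, a phosphatase that acts on ERK in the nucleus, was at 78.2 and 75.5 CPM in R183W and at 133, 132 and 139 CPM in WT libraries (log2 difference -0.81, SE 0.12, edgeR adjusted p = 0.00124). Among AP-1 and immediate early factors, EGR1 was higher at 1.21 (SE 0.24) and FOSL2 lower at -1.25 (SE 0.23). The EGR1 call was lost without R183W WM1119 library 2 (adjusted p 0.101) and that of FOSL2 without R183W WM1119 library 1 (0.0904).

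Secreted factors were called in both directions. GDF15, a stress-induced cytokine, stood at 352 and 399 CPM in R183W and at 866, 814 and 860 CPM in WT libraries (log2 difference -1.17, SE 0.12, edgeR adjusted p = 2.66e-05). Neurotensin, NTS, had 2 counts in R183W and 129 in WT libraries and was 44.4-fold lower (95% exact counting interval 12 to 370). They were 2 of 4 lower genes among 17 cytokine and secreted factor genes, of which 2 were higher. Both higher calls were lost with R183W WM1119 library 1 or 2 omitted, where 2 genes were lower, and 7 were lower with WT WM1119 library 3 omitted. Of 20 plasminogen activator, matrix metalloproteinase and inhibitor genes 3 (15%) were lower and 2 (10%) higher, with 6 lower and 2 higher without WT WM1119 library 3. PLAT, tissue plasminogen activator, was at 6.0 and 5.74 CPM in R183W and at 22.6, 23.6 and 22.7 CPM in WT libraries (log2 difference -1.96, SE 0.25, edgeR adjusted p = 0.000286). Under vehicle its groups were at 19.5, 27.2 and 26.0 CPM in R183W and 17.9, 17.5 and 21.8 CPM in WT libraries, and the interaction of -2.30 (SE 0.32, edgeR adjusted p = 0.0148) was the lowest of those called among the genes named here. TIMP2, an inhibitor of matrix metalloproteinases, was at 169 and 170 CPM in R183W and at 326, 372 and 401 CPM in WT libraries (log2 difference -1.11, SE 0.14, edgeR adjusted p = 0.000238).

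Cell contact and matrix genes differed in both directions. Of 31 tested claudins and junction genes 7 (22.6%) were lower and 2 higher (median -0.36). CLDN16, a tight junction claudin, was at 13.2 and 9.06 CPM in R183W and at 181, 179 and 250 CPM in WT libraries (log2 difference -4.17, SE 0.26, edgeR adjusted p = 3.62e-07). PKP3, a desmosomal plakophilin, was at 8.64 and 6.95 CPM in R183W and at 66.3, 94.3 and 173 CPM in WT libraries (log2 difference -3.80, SE 0.39, edgeR adjusted p = 3.64e-05). CLDN4 was at 6.96 and 3.62 CPM in R183W and at 23.9, 17.0 and 18.2 CPM in WT libraries (log2 difference -1.87, SE 0.32, edgeR adjusted p = 0.00244). The junction genes named here were low in both R183W libraries, which follows from how they were chosen. The 2 members called higher are not named. Omitting either R183W WM1119 library left 3 lower, omitting WT WM1119 library 3 gave 10, and 10 were lower under vehicle.

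Of 37 collagens, laminins and other matrix genes 6 (16.2%) were lower and 3 higher. LAMA4, a laminin chain, was at 21.8 and 29.6 CPM in R183W and at 132, 118 and 121 CPM in WT libraries (log2 difference -2.27, SE 0.19, edgeR adjusted p = 7.68e-06). NID1, nidogen of basement membranes, was higher, at 68.9 and 61.9 CPM in R183W and at 30.5, 30.6 and 23.9 CPM in WT libraries (log2 difference 1.2, SE 0.20, edgeR adjusted p = 0.0019). FN1, fibronectin, was at 151 and 157 CPM in R183W and at 380, 347 and 225 CPM in WT libraries (log2 difference -1.05, SE 0.21, edgeR adjusted p = 0.00638, and up to 0.0872 without R183W WM1119 library 1 or 2). Under vehicle FN1 was at 61.0, 73.4 and 69.6 CPM in R183W and at 468, 603 and 628 CPM in WT libraries, a wider gap, with an interaction of 2.01 (SE 0.27, edgeR adjusted p = 0.0148). The integrin subunit ITGAV was lower at -0.89 (SE 0.14) and ITGA1 higher at 0.99 (SE 0.17), with edgeR adjusted p-values of 0.00162 and 0.00264. The matrix count was 3 and 2 lower without R183W WM1119 library 1 or 2 and 10 lower without WT WM1119 library 3.

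Genes of the mesenchymal state did not share a direction, with 5 of 20 (25%) higher and 4 (20%) lower. FOXC1, a forkhead factor, was at 183.1 and 194 CPM in R183W and at 506, 530 and 547 CPM in WT libraries (log2 difference -1.49, SE 0.12, edgeR adjusted p = 6.11e-06). TCF4, a helix-loop-helix factor, was at 15.6 and 18.4 CPM in R183W and at 51.2, 44.2 and 34.7 CPM in WT libraries (log2 difference -1.36, SE 0.21, edgeR adjusted p = 0.00135). NT5E, the surface nucleotidase CD73, was higher, at 17.5 and 19.0 CPM in R183W and at 5.27, 3.85 and 4.95 CPM in WT libraries (log2 difference 1.95, SE 0.31, edgeR adjusted p = 0.00139). Under vehicle NT5E stood at 17.2, 12.8 and 13.8 CPM in R183W and at 9.15, 16.6 and 14.5 CPM in WT libraries, with an interaction that was not called (1.83, SE 0.40, edgeR adjusted p = 0.0844). The higher count of this list was 1 and 2 without R183W WM1119 library 1 or 2, and 3 with WT WM1119 library 1 or 2 omitted.

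Of 20 endometrial lineage genes 4 (20%) were higher and 2 (10%) lower, and both lower calls were lost with R183W WM1119 library 2 omitted. FOXA2, a pioneer factor of glandular epithelium, was at 126 and 121 CPM in R183W and at 57.1, 59.6 and 42.9 CPM in WT libraries (log2 difference 1.2, SE 0.16, edgeR adjusted p = 0.000392). SPP1, the secreted phosphoprotein osteopontin, was at 823 and 860 CPM in R183W and at 519, 508 and 458 CPM in WT libraries (log2 difference 0.76, SE 0.11, edgeR adjusted p = 0.000973). LIFR, the receptor of leukaemia inhibitory factor, was higher at 1.10 (SE 0.17, edgeR adjusted p = 0.00135). KLK6, a kallikrein-related peptidase, was at 9.84 and 8.46 CPM in R183W and at 108, 124 and 99.5 CPM in WT libraries (log2 difference -3.58, SE 0.21, edgeR adjusted p = 2.86e-07). HRK, a BH3-only activator of apoptosis, was at 9.84 and 8.15 CPM in R183W and at 30.3, 33.1 and 41.3 CPM in WT libraries (log2 difference -1.94, SE 0.24, edgeR adjusted p = 0.000169). HRK was 1 of 4 lower genes among 18 of the BCL2 family, with BIK, BMF and PMAIP1, where the count was 1 without either R183W WM1119 library.

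PPP2R1A itself (ENSG00000105568, chromosome 19) stood at 33.1 and 26.9 CPM in R183W and at 29, 30.3 and 23.9 CPM in WT libraries under WM1119, groups that overlapped (log2 difference 0.11, SE 0.20, edgeR adjusted p = 0.79). KAT6A (ENSG00000083168, chromosome 8) was at 184 and 174 CPM in R183W and at 181, 205 and 284 CPM in WT libraries (log2 difference -0.32, SE 0.21, edgeR adjusted p = 0.385). Of the 8 genes of the KAT6A and KAT6B complex edgeR called 0, with 1 lower at an unadjusted p under 0.05 and 0 by DESeq2 and limma-voom (median -0.20). Of 28 PP2A genes 1 was higher and 1 lower, and without WT WM1119 library 3 there were 3 higher and 3 lower. The regulatory subunit PPP2R5A was higher, at 136 and 137 CPM in R183W and at 90.9, 98.1 and 85.1 CPM in WT libraries (log2 difference 0.58, SE 0.13, edgeR adjusted p = 0.0174). The regulatory subunit PPP2R2C was lower, at 1.68 and 1.81 CPM in R183W and at 10.1, 13.4 and 6.19 CPM in WT libraries (log2 difference -2.51, SE 0.51, edgeR adjusted p = 0.00728). Both calls were lost without R183W WM1119 library 1 or 2, at adjusted p up to 0.132 and 0.0917.

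Of 29 YAP and TEAD genes 1 was higher and 3 (10.3%) lower, but edgeR called 0 as lower once R183W WM1119 library 1 or 2 was left out, with 5 and 4 lower at an unadjusted p under 0.05. Of 20 ERK feedback genes 2 were higher and 2 lower. Both higher calls were lost with R183W WM1119 library 1 or 2 omitted, where 1 and 2 genes were lower, and there were 4 higher and 6 lower with WT WM1119 library 3 omitted. Of 25 HOX genes 1 was higher and 3 (12%) lower, of 12 S100 and kallikrein-related genes 2 and 3, of 8 keratins 1 and 2, and of 33 actin and contractile genes 3 and 2. All HOX, keratin and actin calls were lost with R183W WM1119 library 1 omitted, where an unadjusted p under 0.05 was left for 1 higher and 3 lower HOX genes, 1 higher and 2 lower keratins and 4 higher and 2 lower actin genes. With R183W WM1119 library 2 omitted there were 1 higher and 1 lower HOX gene, 1 lower keratin and 1 lower actin gene. The S100 and kallikrein-related list lost both higher calls with either of these libraries omitted and had 5 higher and 5 lower with WT WM1119 library 3 omitted. Of 26 histone acetyltransferases and deacetylases KAT8 was higher and HDAC8 and HAT1 were lower, at 1.13, -1.08 and -1.04; KAT8 acetylates histone H4. None of the 3 calls was kept with R183W WM1119 library 1 or 2 omitted. HAT1 was named after its values were seen.

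Housekeeping lists had few called members. Of 78 ribosomal protein genes 3 (3.85%) were lower under WM1119, near the share of all genes. Under vehicle 13 of the 78 were lower, against 6.17% of all genes there. With all WM1119 libraries, 28 were lower and 0 higher under WM1119 at an unadjusted p under 0.05. With WT WM1119 library 3 omitted 36 were lower, and the list median was -0.36 against -0.30 with all libraries. With R183W WM1119 library 1, R183W WM1119 library 2 or WT WM1119 library 2 omitted edgeR called 0, with 15, 10 and 13 lower at an unadjusted p under 0.05. Their summed level was 61925 and 60605 CPM in R183W libraries and 78412, 79293 and 67820 CPM in WT libraries. Among respiratory chain, proteasome, lysosome, chaperone and ribosome biogenesis genes, 1 to 3 members of each list were called. Most of these calls were lost with R183W WM1119 library 1 omitted, which left that group with library 2 alone. With WT WM1119 library 3 omitted, 20.8% of all genes were called. There the called members were 7 of 30 proteasome, 7 of 34 lysosome and 7 of 40 ribosome biogenesis genes. They were 16 of 42 respiratory chain and 12 of 30 chaperone genes. EdgeR called 0 of 21 p53 targets, 0 of 19 NF-kB genes and 0 of 9 CDK inhibitors and D cyclins. At an unadjusted p under 0.05 there were 1 lower p53 target, 1 higher NF-kB gene and 1 higher CDK inhibitor or D cyclin. DESeq2 called 1 of the last list and limma-voom 0 of the 3 lists. In simulated counts edgeR called 34.3% of 2-fold changes, so few calls do not show that a list was unchanged.

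**Figure D5:**
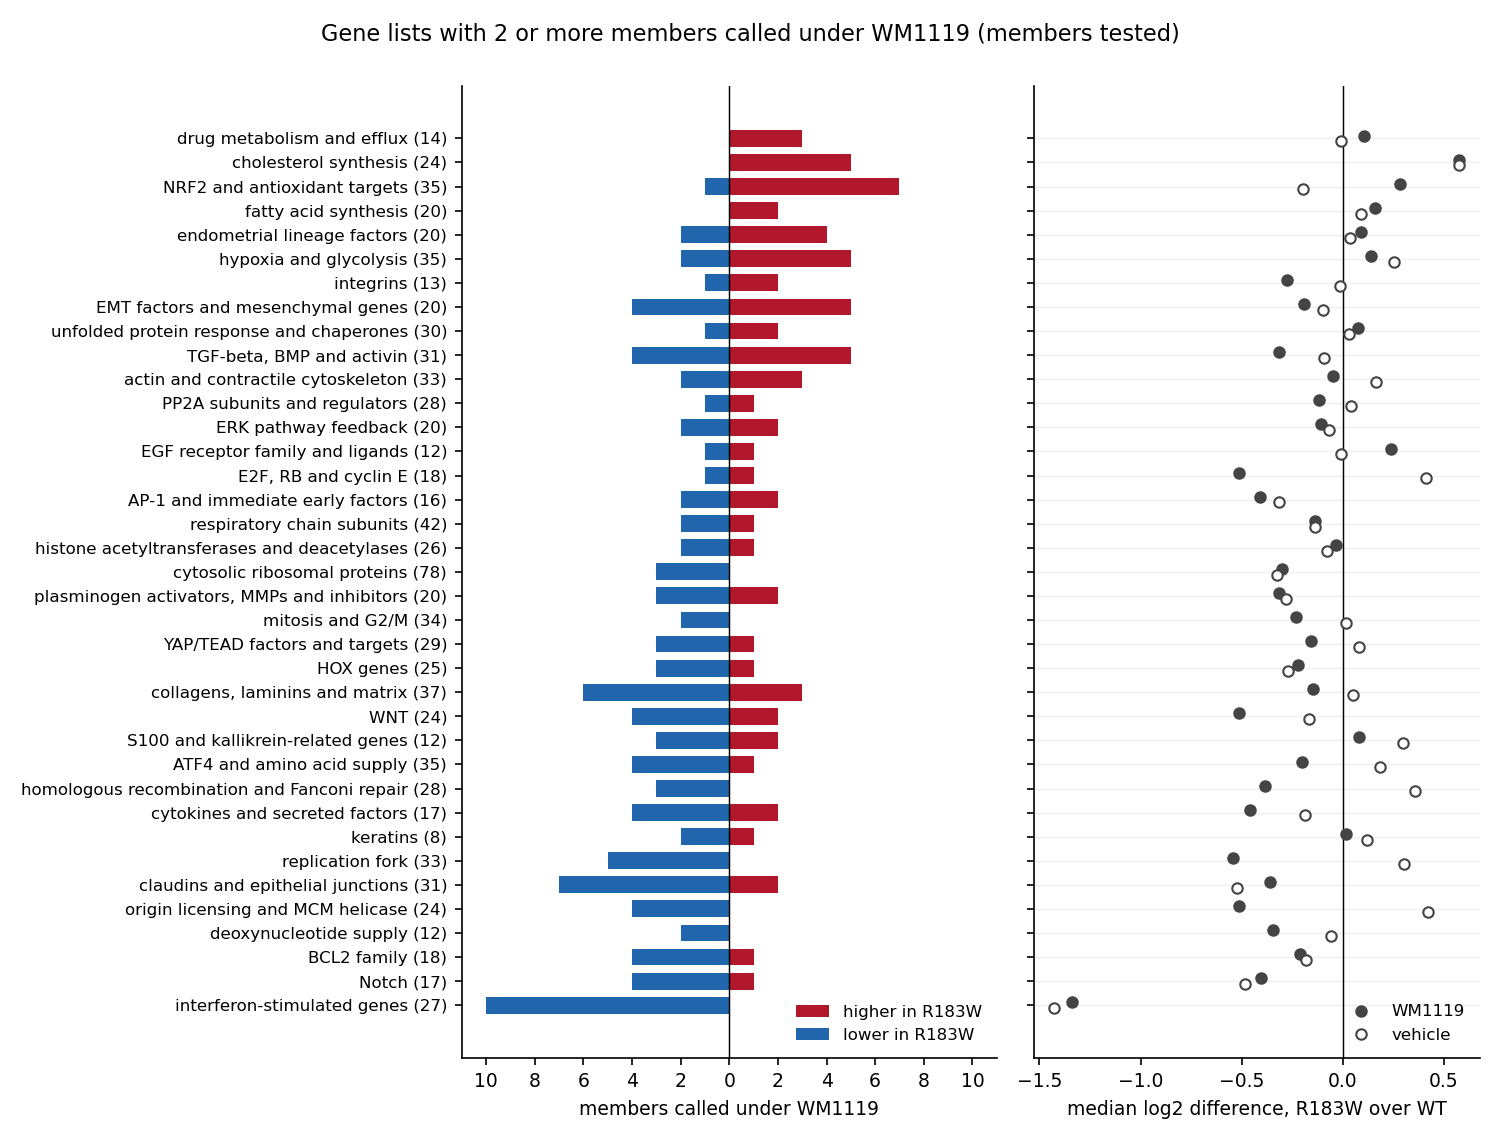
Gene lists with at least 2 members called under WM1119 (number tested in brackets). Left, members called higher (red) and lower (blue) in R183W cells; right, the median log2 difference of the tested members under WM1119 (filled) and vehicle (open). Interferon-stimulated genes lie at -1.34 under WM1119 and -1.43 under vehicle, and the licensing genes lie at -0.52 under WM1119 and 0.42 under vehicle.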

How the data were processed

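RNA of 11 HEC50B samples was sequenced, per the labels after RNeasy extraction, DNase I treatment and a ScriptSeq Complete Gold kit. The deposited table holds expected counts per gene for 57736 Ensembl identifiers, made by the authors with STAR and RSEM on hg19, per the submitters' processing notes, which give no versions. All deposited values were whole numbers, so rounding changed none. Symbols, matched for 51959 identifiers, and chromosomes came from GENCODE 29.

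Genes with low counts were removed with filterByExpr in edgeR 4.0.16 (R 4.3.3), which left 13980. Libraries were scaled by TMM, and 1 quasi-likelihood fit of the 4 group means over 11 libraries gave each two-sided test. P-values were adjusted by Benjamini-Hochberg over all tested genes. Standard errors were taken from the F statistic. The test was checked on simulated counts of 13980 genes for the comparison under WM1119. It called 3.23% of 1.5-fold, 34.3% of 2-fold and 76.6% of 4-fold changes in the right direction. It also called 6 unchanged genes. Most changes of 2-fold or less were thus missed, so a gene that was not called may still differ.

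Named genes were PPP2R1A, the KAT6 complex, the 20 largest differences per direction and up to 4 genes per list. Genes without a symbol, clone names, pseudogenes and small RNAs were passed over. The differences and list genes were calls kept in all 11 fits without 1 library, at 5 CPM or more in the higher group. Their R183W and WT libraries under WM1119 also did not overlap. Lists with fewer than 2 such genes gave up to 2 called members, and the interaction gave 10 per direction. Other genes named were chosen after their values were seen. Some genes that met the rule are not reported here. Genes and lists were chosen with earlier results of these data known. Alternatives were other size factors, no filter, DESeq2 1.42.0, limma-voom (limma 3.58.1), only the groups compared, a replicate block, and each library left out.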

Additional observations from a re-analysis of the deposited data

Results flagged for a closer look

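For 27 named genes the difference between R183W and WT cells was itself different under WM1119 and under vehicle, by the interaction test in edgeR (adjusted p under 0.05). Values below are the log2 difference under WM1119 less that under vehicle.

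Replication and S phase genes had negative values. They were -1.59 for MCM3, -1.67 for MCM7, -1.79 for CDC6, which loads the helicase, -1.47 for CHAF1A, -1.42 for POLA2, a subunit of the primase complex, and -1.36 for CLSPN. E2F1 had -1.68, RBL1 -1.4, FANCD2 -1.1 and PKMYT1, a kinase that restrains CDK1, -1.56. CDC6 differed by -0.68 under WM1119 (SE 0.22) and 1.11 under vehicle (SE 0.19), and PKMYT1 by -0.23 (SE 0.18) and 1.33 (SE 0.16).

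Outside that group the values were -2.3 for PLAT, -1.29 for WNT2B, -1.23 for the calcium-binding protein S100A2 and -1.02 for the collagen chain COL1A1. SLC48A1 and RAPGEF3 had -2.05 and -1.93; these genes are neighbours, and how their counts were split is uncertain. Positive values were 2.11 for SLFN5, 2.01 for FN1, 1.7 for TMEM158, 1.52 for CDKAL1, 1.41 for JAG1, 1.32 for LIMA1, 1.31 for CYP1B1, 1.29 for TSC22D1, 1.27 for SAT1, 0.91 for SPP1 and 0.78 for FTL. None of the 27 kept its interaction call in all 11 fits with a library left out.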

How the results depend on the processing

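No named gene called under WM1119 in the fit of all groups turned its direction in any alternative run, but the balance of calls did. Turns of sign in named genes not called there were not counted. Of the values of named genes, 2334 stayed on their side of the threshold, 259 lost the call and 6 gained it. Fitting only the groups compared gave 319 called genes under WM1119, 2929 under vehicle and 270 called in both with the same direction, against 1197, 1817 and 671 in the fit of all groups. Leaving out 1 library gave 386 to 2895 genes under WM1119. Under vehicle it gave 965 to 3151, with 965, 1035 and 1144 without R183W vehicle library 1, 2 or 3, 968 and 1002 when WT vehicle library 2 or 3 was omitted, and 3151 when WT WM1119 library 3 was. The count called in both ran from 275 to 1493 and the interaction count from 0 to 192. The interaction had 20 genes without R183W vehicle library 1, 12 and 13 when WT vehicle library 2 or 3 was omitted, and 13 when WT WM1119 library 2 was. It had 191 genes with no filter on low counts and 157 by DESeq2. The no-filter fit called 1783 genes under WM1119, 841 higher and 942 lower, and omitting WT WM1119 library 3 gave 1381 higher and 1514 lower, against 649 and 548. With no filter the chaperone list had 1 higher and 4 lower, against 2 and 1, and the mesenchymal list 4 and 6, against 5 and 4. The cause of these changes was not tested.

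With the replicate number as a block, 678 genes were called under WM1119, 1189 under vehicle, 406 in both and 0 in the interaction by edgeR, where 1023 had an unadjusted p under 0.05. Deviations of same-numbered libraries from their group means correlated at 0.131 and -0.0729 under WM1119 and at 0.137, -0.0196 and 0.0948 under vehicle. With so few libraries per group, these values cannot show whether same-numbered libraries share a culture or a batch.

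Depth limits what can be said of genes near the floor, which was highest, at 1.15 CPM, in WT WM1119 library 3.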

Other observations

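Differences between the lines were uneven over the chromosomes. Under WM1119 the median log2 difference was 0.286 over the 679 tested genes of chromosome 16, with 70 genes called higher and 9 lower, and 0.281 over the 231 genes of chromosome 13, with 30 higher and 7 lower. It was -0.229 over the 941 genes of chromosome 2, with 29 higher and 66 lower, and -0.209 over the 497 genes of chromosome 8, with 13 higher and 54 lower. On the other chromosomes the medians ran from -0.121 to 0.089. Under vehicle the medians of chromosomes 16, 13, 2 and 8 were 0.316, 0.235, -0.24 and -0.221. Without WT WM1119 library 3 the WM1119 medians were 0.334, 0.22, -0.207 and -0.224.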
